A study of Mus musculus with 12 samples.

Results

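The interferon-stimulated genes described here are 54 genes of the mouse interferon response, chosen by name: the interferon receptors and the ligand gene Ifnb1, the transcription factors, the sensors of foreign nucleic acid, the antiviral effectors and the inducible GTPases. Of these, 52 were among the 18908 genes that both tables list by symbol, and Mx1 and Mx2 were not analysed here. Their RNA was measured in cultured mouse bone marrow mesenchymal stem cells (MSCs), adherent cells with the capacity to form bone and fat cells, grown in DMEM with 10% FBS. The labels place 12 libraries in 3 groups: old donors treated with 1 µM melatonin, a pineal hormone, for 24 h (old melatonin, replicates 1, 3 and 5), old donors with vehicle (old vehicle, replicates 1, 2, 3, 5, 8 and 9) and young donors with vehicle (young vehicle, replicates 2, 4 and 5). The old vehicle replicates 1, 3 and 5 were deposited in one table with the melatonin libraries, and replicates 2, 8 and 9 in another with the young libraries. The series title asks about melatonin and bone formation by senescent MSCs. The sources used here give no strain, age in months or sex, and the labels leave it unsaid if each library is its own animal. The p-values therefore cover the spread among libraries, which may be technical, with n = 3 per group in each table.

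Interferons are secreted proteins that cells release when they sense foreign or misplaced nucleic acid. Type I interferons act through the receptor chains IFNAR1 and IFNAR2 and, by way of STAT2 and IRF9, switch on genes that carry an interferon-stimulated response element (ISRE) in their promoters. Interferon-gamma acts through IFNGR1 and IFNGR2, and it strongly induces the guanylate-binding proteins and immunity-related GTPases. Macrophages are known for high basal levels of many of these genes, which is why Lyz2, the lysozyme gene of myeloid cells, is given beside them for each library.

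Libraries stood apart in 2 ways that bear on the values below. Lyz2 was at 9466, 5664, 8387 and 8069 CPM (counts scaled to library size, with TMM factors over all 12 libraries) in old vehicle replicates 3, 5, 8 and 9, and at 23.2 to 556 CPM in the other 8. These 4 are called the Lyz2-rich libraries here. The 20 macrophage markers, which include Lyz2, summed to 16468 to 21927 CPM in them and to 66.9 to 1166 CPM in the other libraries. At most 2 of these markers were at 3 counts or fewer in a library. Of the marrow stromal markers, Pdgfrb was at 152 to 699 CPM in all libraries, while Lepr had 0 counts in old melatonin replicate 5. The sum of these markers was lowest in the Lyz2-rich libraries (7031 to 11268 CPM, against 13803 to 48322 CPM). That sum is weighted by Col1a1 and Col1a2, which reached 23314 and 19862 CPM. In contrast, Itgb1, Cxcl12 and Eng had their highest levels in Lyz2-rich libraries (2447, 2123 and 133 CPM). Several markers of other blood cells were at or near 0, with Siglech at most 0.202 CPM, Cd3e 0.286 and S100a9 0.0454. Others were not: the neutrophil genes S100a8 and Camp reached 4.3 and 2.87 CPM, both in old vehicle replicate 5, Cd4 reached 109 CPM in old vehicle replicate 8, and Irf8 and Tcf4, which plasmacytoid dendritic cells share with other cells, reached 75.5 and 321 CPM. The part of these in the results was not tested. In addition, each library of the melatonin table matched 1 library of the age table, with Pearson r = 0.984 to 0.997 of log2 CPM over 14133 genes, against 0.883 to 0.952 within a group of a table. The melatonin replicates 1, 3 and 5 matched young vehicle replicates 2, 4 and 5, and did not match an old vehicle library best. Old vehicle replicates 1, 3 and 5 matched old vehicle replicates 2, 8 and 9. Counts within matched pairs differed by more than counting error (median chi-square 1.81 to 6.02 times its expectation). This cannot tell separate cultures from repeat libraries of the same culture, and the source of the matches was not tested. All libraries were kept under their labels, but the 2 comparisons are not independent of each other. In bulk RNA, fewer cells of a type and less RNA per cell cannot be told apart.

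Many members carry an ISRE near their start site. Promoters were taken from RefSeq on GRCm38.p6, a build other than the mm39 named in the processing notes, as 300 bases from 250 before to 50 after the start. Entries matched 44 of the 52 members by symbol, the others being Dhx58, Zbp1, Oas2, Ifi27, Usp18, Parp9, Parp14 and Iigp1. The ISRE letters, GAAA followed by any 2 bases and GAAA again, read on both strands with overlapping matches allowed, were found for 22 of these 44 genes (50%), against 1079 of 27025 genes with an entry (3.99%). The letters TTCNNNGAA, the gamma-activated site, were found for 14 of 44 (31.8%), against 9.55% of all genes. A match describes letters and shows no binding. The 6 promoters printed here are those of members whose levels are given below and that differ in how they followed Lyz2. Each is printed 5′ to 3′ on the strand of the gene, with ISRE letters of either strand in capitals.
Isg15, chr4:156200769-156201068, minus strand: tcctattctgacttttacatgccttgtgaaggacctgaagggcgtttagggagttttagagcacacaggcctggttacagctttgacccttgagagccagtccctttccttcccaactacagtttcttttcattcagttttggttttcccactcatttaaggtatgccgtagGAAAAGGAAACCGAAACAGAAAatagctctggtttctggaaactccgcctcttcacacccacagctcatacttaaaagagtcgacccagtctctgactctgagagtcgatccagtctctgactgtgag
Ifit1, chr19:34640639-34640938, plus strand: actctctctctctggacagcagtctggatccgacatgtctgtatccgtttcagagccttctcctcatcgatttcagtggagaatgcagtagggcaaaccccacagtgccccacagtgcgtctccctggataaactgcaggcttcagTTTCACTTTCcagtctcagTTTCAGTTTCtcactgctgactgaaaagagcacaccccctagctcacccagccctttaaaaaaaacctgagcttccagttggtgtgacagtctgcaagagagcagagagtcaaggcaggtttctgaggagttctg
Ifit3, chr19:34583279-34583578, plus strand: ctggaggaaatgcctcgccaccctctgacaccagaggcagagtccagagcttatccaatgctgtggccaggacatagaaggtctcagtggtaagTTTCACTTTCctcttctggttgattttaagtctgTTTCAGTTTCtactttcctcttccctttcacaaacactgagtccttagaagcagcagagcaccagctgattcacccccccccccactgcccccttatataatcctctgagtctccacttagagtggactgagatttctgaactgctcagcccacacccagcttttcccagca
Ifit3b, chr19:34607707-34608006, plus strand: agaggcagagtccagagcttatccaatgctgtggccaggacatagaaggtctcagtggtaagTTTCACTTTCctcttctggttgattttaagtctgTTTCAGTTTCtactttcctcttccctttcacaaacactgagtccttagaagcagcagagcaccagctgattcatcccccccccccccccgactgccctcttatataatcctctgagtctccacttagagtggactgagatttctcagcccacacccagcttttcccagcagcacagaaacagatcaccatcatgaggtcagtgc
Oas1a, chr5:120907476-120907775, minus strand: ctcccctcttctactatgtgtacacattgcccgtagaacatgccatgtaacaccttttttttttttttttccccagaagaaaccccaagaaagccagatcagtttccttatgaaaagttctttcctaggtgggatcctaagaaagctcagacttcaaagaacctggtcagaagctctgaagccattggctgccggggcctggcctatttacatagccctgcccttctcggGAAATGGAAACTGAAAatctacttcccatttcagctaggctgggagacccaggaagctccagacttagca
Gbp5, chr3:142496684-142496983, plus strand: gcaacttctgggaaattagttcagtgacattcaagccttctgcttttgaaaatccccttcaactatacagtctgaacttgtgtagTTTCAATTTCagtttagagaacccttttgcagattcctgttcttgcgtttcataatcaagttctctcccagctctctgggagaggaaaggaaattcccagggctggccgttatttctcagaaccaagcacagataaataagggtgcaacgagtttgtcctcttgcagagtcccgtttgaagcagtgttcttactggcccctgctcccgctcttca
The capitals in Isg15 are 3 overlapping matches that begin 78, 72 and 66 bases before the start, and those in Oas1a are 2 overlapping matches that begin 20 and 14 bases before it. Ifit1 has separate matches 104 and 85 bases before its start. Ifit3 and Ifit3b carry the same pair of matches, shifted by 32 bases, and their windows were identical at 201 of 268 aligned bases (75.0%) without gaps. Gbp5 has a single match, 165 bases before the start.

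Copies this alike also limit how far reads can be assigned. Of the 50-base words in Ifit3 transcripts (GENCODE vM21), 51.2% also occur in Ifit3b, and 56.9% of those in Oas1a occur in Oas1g. The separate levels of these 4 genes are therefore uncertain.

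Across the 12 libraries, the members were led in level by Ifitm3 and Ifitm2, which encode membrane proteins that hinder viral entry. On the TPM scale, which corrects for gene length, Ifitm3 averaged 1862 and Ifitm2 926 over all libraries, followed by the tetherin gene Bst2 at 419.9 and Ifi27 at 209. Ifnb1, the interferon-beta gene, was at the other end. It had 2 counts in young vehicle replicate 2 and 0 counts in the other 11, where 3 counts, the most a count of 0 allows, equal 0.138 to 0.152 CPM (counting error only). The summed level of all listed members was 3309, 1794 and 2192 CPM in old melatonin replicates 1, 3 and 5, and 1909, 4841 and 7542 CPM in old vehicle replicates 1, 3 and 5. In the age table it was 1983, 4753 and 4642 CPM in old vehicle replicates 2, 8 and 9, and 3715, 1775 and 2564 CPM in young vehicle replicates 2, 4 and 5. The highest sums were thus in the Lyz2-rich libraries, and replicates 1 and 2, the other old vehicle libraries, lay near the bottom. Of the 51 members with counts throughout, 40 had their highest level of all libraries in old vehicle replicate 5, which had the lowest Lyz2 of the 4 Lyz2-rich libraries. The share of all genes that were highest in this library was not computed.

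For 32 of the 51 members the 4 highest levels were those of the 4 Lyz2-rich libraries, against 15% of 14184 expressed genes. The same held for 19 of 20 macrophage markers, which include Lyz2, the gene that defines these libraries. The other 19 members were Ifnar1, Irf9, Stat2, Ddx58, Eif2ak2, Adar, all 4 IFIT genes, Isg20, Samd9l, Ifi27, Xaf1, the 3 IFITM genes, Gbp3 and Gbp7. Within the age table, 11 members peaked in young vehicle replicate 2, a library with 396 CPM of Lyz2. In old vehicle replicate 2 and in old vehicle replicate 1 alike, 27 of the 51 members had their lowest level of the table, although Lyz2 there was at 505 and 556 CPM. These libraries are a matched pair, so their counts are not independent. For these peaks and lowest levels, the shares of all genes were not computed.

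**Figure D1:**
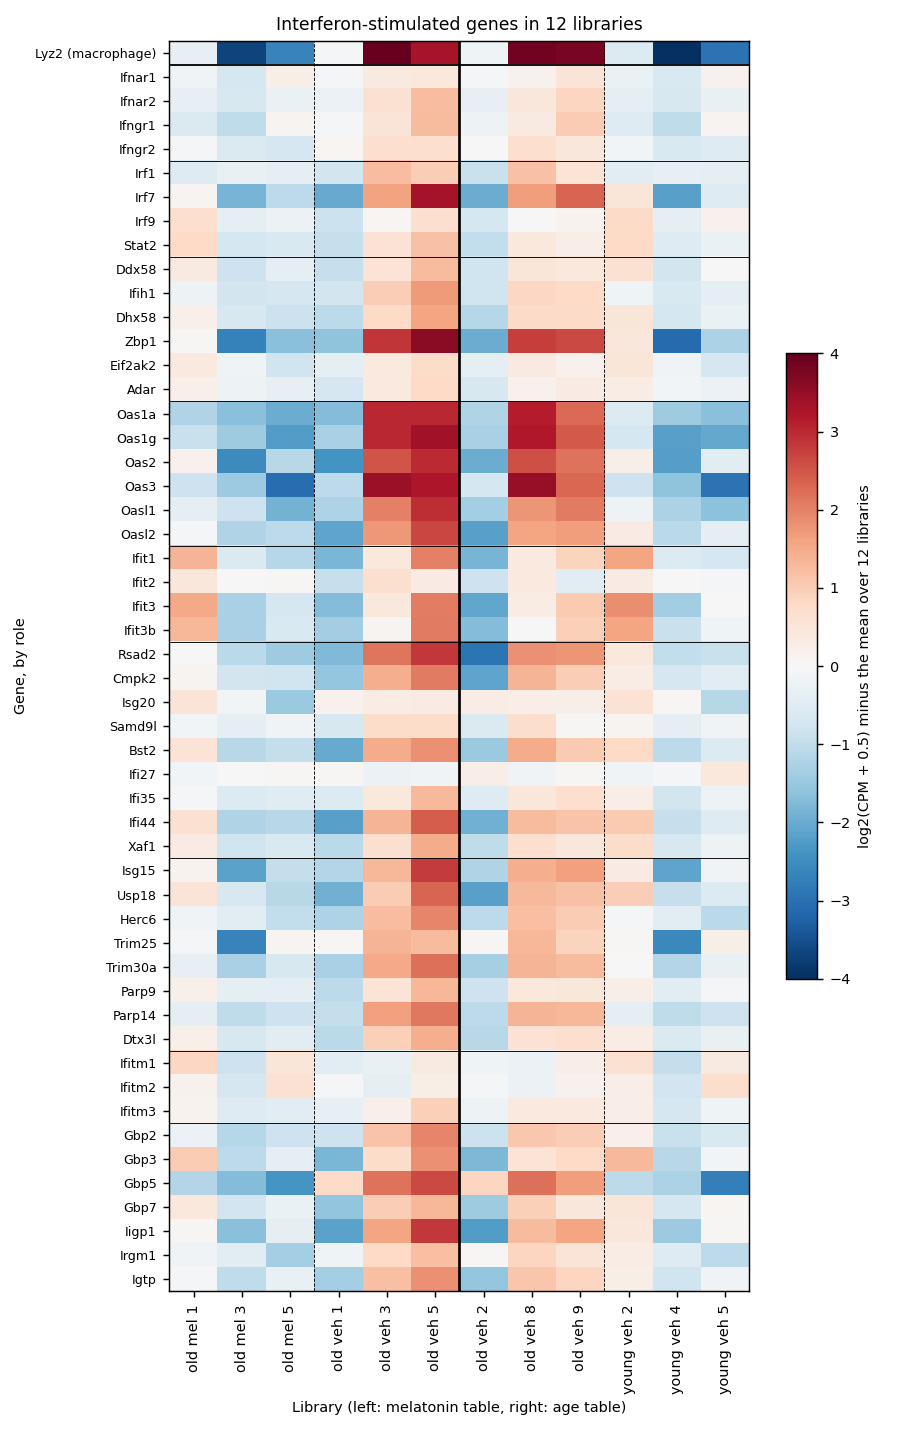
Heat map of log2(CPM + 0.5) of Lyz2 and of the 51 members with counts in every library, minus each gene's mean over 12 libraries (colour scale), with genes ordered by role and libraries of the melatonin table on the left. Dashed lines separate the groups. Old vehicle replicates 3, 5, 8 and 9 are red for Lyz2 and for most members, while the IFIT genes are also red in old melatonin replicate 1 and young vehicle replicate 2.

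The comparison of old melatonin with old vehicle asked what the hormone changes in cells from old donors. Its groups follow the labels, although each melatonin library matched a young vehicle library best. No member passed at a Benjamini-Hochberg adjusted p under 0.05 with edgeR's quasi-likelihood test (0 of 51 tested), and neither did any other gene (0 of 13471, 0%). At an unadjusted p under 0.05, 15 members were lower and 0 higher in old melatonin libraries, against 9.45% and 4.76% of all genes. The log2 change was negative for 47 of 51 members, with a median of -1.17 beside 0.02 over all genes tested. Limma-voom also called 0 members and 0 genes, whereas DESeq2 called 7 members, all lower, which are Gbp5, Oas1a, Oas1g, Oas3, Oasl1, Parp14 and Zbp1, beside 6.64% of all genes. Without the Lyz2-rich libraries, which leaves old vehicle replicate 1 alone, the median turned to 0.70, 40 of 51 members were higher in old melatonin libraries and 0 passed. Without old vehicle replicate 1 instead, edgeR called 12 members lower, beside 602 of 13914 genes (4.33%).

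Old and young vehicle libraries were set against each other to ask how age alters these cells. Here too edgeR called 0 of 51 members and 0 of 13547 genes (0%). At an unadjusted p under 0.05, 8 members were higher and 0 lower in old libraries, against 8.81% and 4.95% of all genes. The log2 change was positive for 41 of 51 members, with a median of 0.73 beside -0.02 over all genes. DESeq2 called 4 members higher, which are Gbp5, Oas1a, Oas1g and Oas3, beside 6.41% of all genes, and limma-voom called 0 members and 0 genes. Without old vehicle replicates 8 and 9 the median was -0.79 and 40 of 51 members were lower in the lone old library. With all 6 old vehicle libraries against the young ones, edgeR called 46 of 13939 genes (0.33%) and 0 members. In both comparisons the adjusted p of each gene below is that of edgeR over all genes, and no gene is called.

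**Figure D2:**
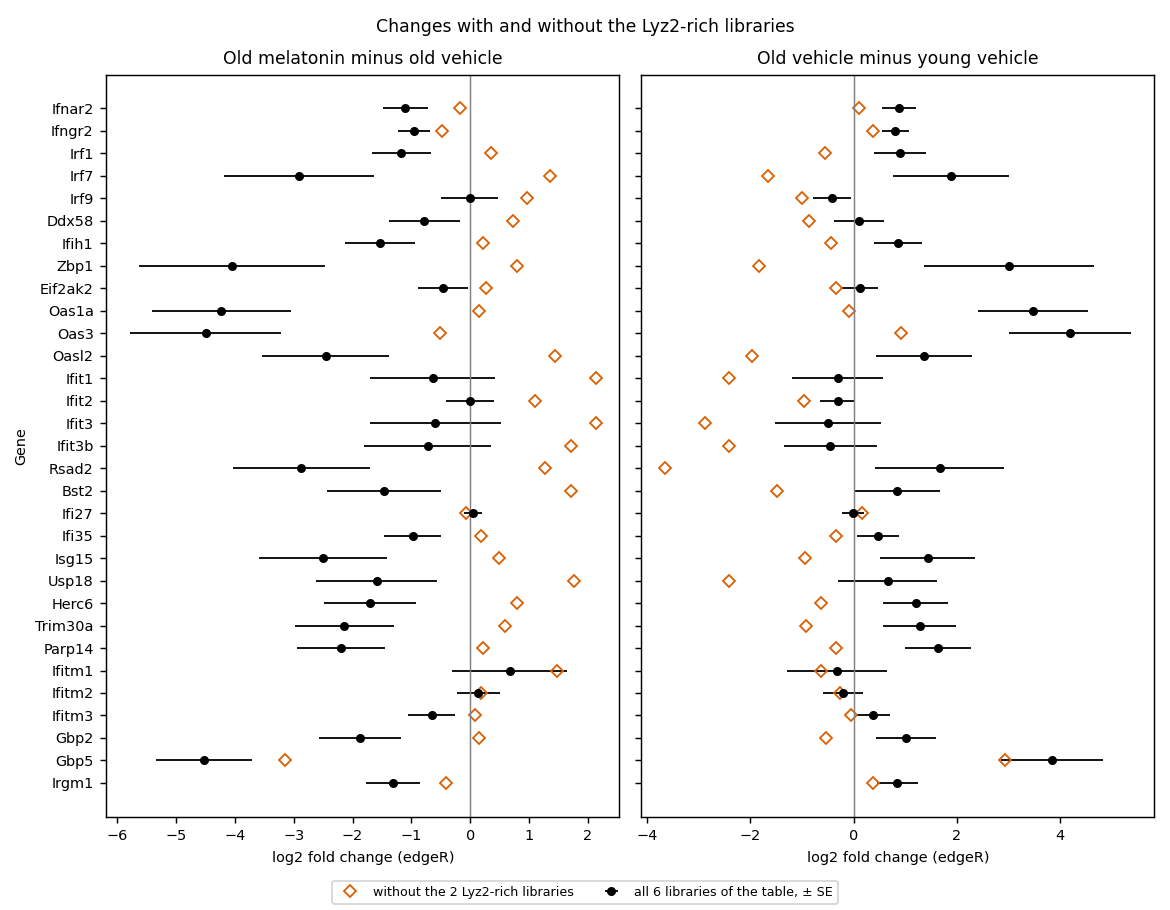
Log2 fold changes of 31 named members (rows) in old melatonin minus old vehicle (left) and old minus young vehicle libraries (right). Black points with SE bars use all 6 libraries of a table, and open diamonds leave out its 2 Lyz2-rich libraries. Most diamonds lie on the other side of 0 from the points, and Gbp5 stays at -3.15 and 2.94.

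The 4 receptor genes were expressed in every library, and their median log2 changes of -1.02 for melatonin and 0.84 for age were close to those of the members as a whole. Ifngr2 (gene identifier 15980), the signalling chain of the interferon-gamma receptor, was at 106, 76.1 and 71.4 CPM in old melatonin replicates 1, 3 and 5, against 118, 181 and 182 CPM in old vehicle replicates 1, 3 and 5. These groups did not overlap, as for 8.99% of all genes in that direction, and the log2 change was -0.95 ± 0.27 (SE, adjusted p = 0.286). In the age table it was at 111, 179 and 156 CPM in old and 104, 73.9 and 79.6 CPM in young vehicle libraries, again without overlap (8.89% of all genes), with a log2 change of 0.81 ± 0.26 (adjusted p = 0.315). Its lowest old vehicle levels were those of the 2 libraries that are not Lyz2-rich. Without the Lyz2-rich libraries the changes were -0.48 and 0.37. Ifnar2 (15976), a chain of the type I receptor, was at 56.7, 46.0 and 60 CPM in old melatonin libraries, against 61.0, 109 and 170.0 CPM in old vehicle libraries. The lowest vehicle level lay barely above the highest melatonin one, and the log2 change was -1.10 ± 0.39 (adjusted p = 0.319). For age, Ifnar2 was at 57.1, 98.9 and 132 CPM in old and 54.6, 46.1 and 57.9 CPM in young libraries, with overlap and a log2 change of 0.88 ± 0.33 (adjusted p = 0.332). Of the other chains, Ifngr1 had log2 changes of -1.12 ± 0.45 for melatonin and 0.90 ± 0.42 for age, and Ifnar1 had -0.44 ± 0.30 and 0.45 ± 0.27.

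Among the transcription factors, Irf7 spread widely between libraries and Irf9 did not follow Lyz2. Irf7 (54123), the factor that amplifies type I interferon production, was at 38.5, 9.34 and 17.0 CPM in old melatonin libraries, against 8.45, 109 and 360.5 CPM in old vehicle replicates 1, 3 and 5. The age table had it at 8.63, 113 and 179.6 CPM in old and 49.4, 7.48 and 24.8 CPM in young vehicle libraries. Both comparisons overlapped, because old vehicle replicates 1 and 2 lay below most melatonin and young libraries. The log2 changes were -2.91 ± 1.27 for melatonin and 1.89 ± 1.12 for age (adjusted p = 0.374 and 0.482), and without the Lyz2-rich libraries they turned to 1.35 and -1.67. Irf1 (16362), an early factor of the interferon-gamma response, was at 17.0, 19.8 and 19.1 CPM in old melatonin libraries, against 14.5, 58.8 and 48.8 CPM in old vehicle libraries. Its age table levels were 13.0, 55.8 and 36.0 CPM in old and 18.3, 19.7 and 19.0 CPM in young libraries, so that of the 12 libraries the 4 Lyz2-rich ones exceeded 20 CPM. Its log2 changes were -1.17 ± 0.50 and 0.90 ± 0.50 (adjusted p = 0.368 and 0.457). Irf9 (16391), the DNA-binding subunit of the type I complex, was at 90.3, 44.3 and 48.3 CPM in old melatonin and 31.2, 59.4 and 90.1 CPM in old vehicle libraries. Its levels in the age table were 34.4, 55.9 and 61.7 CPM in old and 97.2, 44.3 and 63.8 CPM in young libraries. Its highest level of all was in young vehicle replicate 2, and the log2 changes were -0.01 ± 0.48 and -0.42 ± 0.37 (adjusted p = 0.994 and 0.634). Its partner Stat2 had -0.54 ± 0.65 and -0.09 ± 0.51.

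Nucleic acid sensors divided in the same way. Zbp1 (58203), a sensor of left-handed nucleic acid that can trigger necroptosis, was at 4.63, 0.276 and 1.06 CPM in old melatonin libraries, against 1.14, 35.9 and 61.2 CPM in old vehicle libraries. For age, the levels were 0.759, 33.5 and 30.5 CPM in old and 6.36, 0.0917 and 1.57 CPM in young libraries. It was thus near 1 CPM or below in old vehicle replicates 1 and 2, and the groups overlapped, with log2 changes of -4.05 ± 1.58 and 3.01 ± 1.65 (adjusted p = 0.340 and 0.454). Ifih1 (71586), which encodes the long double-stranded RNA sensor MDA5, was at 28.3, 19.6 and 20.2 CPM in old melatonin libraries, against 19.5, 65.4 and 107 CPM in old vehicle libraries. Its age table levels were 18.4, 58.1 and 57.4 CPM in old and 29.1, 21.0 and 24.7 CPM in young libraries, with overlap in both tables. The log2 changes were -1.53 ± 0.60 and 0.86 ± 0.46 (adjusted p = 0.341 and 0.445). Ddx58 (230073), the gene of the RNA sensor RIG-I, was at 109, 48.0 and 65.4 CPM in old melatonin libraries, against 44.5, 124 and 206 CPM in old vehicle libraries. In the age table it was at 48.2, 119 and 114 CPM in old and 129, 50.5 and 83.6 CPM in young libraries, where young vehicle replicate 2 was the highest. Its changes were -0.78 ± 0.60 and 0.11 ± 0.48 (adjusted p = 0.567 and 0.934). Eif2ak2 (19106), the double-stranded RNA-activated kinase PKR, was at 141, 95.8 and 61.4 CPM in old melatonin and 82.0, 139.7 and 179 CPM in old vehicle libraries. Its levels of 84.1, 139 and 120.5 CPM in old and 151, 98.0 and 67.7 CPM in young libraries also overlapped, with log2 changes of -0.46 ± 0.42 for melatonin and 0.13 ± 0.35 for age (adjusted p = 0.628 and 0.890). The RNA editing gene Adar and the RIG-I regulator gene Dhx58 had log2 changes of -0.41 and -1.21 for melatonin and 0.02 and 0.46 for age.

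The OAS family, whose enzymes make 2′-5′ oligoadenylates that activate the nuclease RNase L, had the largest changes of the 9 role groups, with medians of -3.80 for melatonin and 3.11 for age over 6 genes. Oas3 (246727) was at 6.93, 4.32 and 1.11 CPM in old melatonin libraries, against 5.84, 144 and 124 CPM in old vehicle libraries, a log2 change of -4.50 ± 1.29 (adjusted p = 0.286). The age table had it at 7.63, 147 and 63.8 CPM in old and 7.0, 3.81 and 1.21 CPM in young libraries, which did not overlap, with a log2 change of 4.2 ± 1.18 (adjusted p = 0.315). The separation in the age table rests on 7.63 against 7.0 CPM, and without the Lyz2-rich libraries the changes were -0.51 and 0.92. Oas1a (246730) was at 5.32, 3.63 and 2.87 CPM in old melatonin libraries, against 3.51, 106 and 108 CPM in old vehicle libraries. Its age table levels were 5.31, 116 and 63.5 CPM in old and 8.63, 4.49 and 3.64 CPM in young libraries, so that every library below 10 CPM was one without high Lyz2. The log2 changes were -4.23 ± 1.19 and 3.48 ± 1.06 (adjusted p = 0.286 and 0.315), or 0.16 and -0.078 without the Lyz2-rich libraries. Oasl2 (23962), a family member with ubiquitin-like domains, was also highest in the 4 Lyz2-rich libraries and ranged from 13.0 to 76.7 CPM in the others. It was at 57.6, 26.1 and 29.0 CPM in old melatonin libraries, against 13.8, 204 and 390.0 CPM in old vehicle libraries. Its levels in the age table were 13.0, 183 and 193 CPM in old and 76.7, 28.7 and 47.1 CPM in young libraries. Old vehicle replicates 1 and 2 held its lowest levels, and the changes of -2.46 ± 1.08 and 1.37 ± 0.93 (adjusted p = 0.374 and 0.531) turned to 1.44 and -1.97 without the Lyz2-rich libraries. Oas1g, Oas2 and Oasl1 had log2 changes from -4.78 for Oas1g to -3.06 for Oas2 for melatonin and from 2.40 for Oas2 to 4.54 for Oas1g for age.

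The IFIT family, whose proteins bind viral RNA ends and block translation, showed another order of libraries. Ifit3 (15959) was at 196, 27.4 and 42.1 CPM in old melatonin libraries, against 20, 90.1 and 284 CPM in old vehicle libraries. For age, the levels were 15.6, 82.4 and 141 CPM in old and 247, 25.6 and 66.8 CPM in young libraries. Its level in young vehicle replicate 2, with 396 CPM of Lyz2, thus exceeded those of old vehicle replicates 8 and 9, with 8387 and 8069 CPM. The log2 changes were -0.59 ± 1.11 and -0.50 ± 1.03 (adjusted p = 0.821 and 0.847). Ifit1 (15957) was at 153, 39.6 and 26.7 CPM in old melatonin libraries, against 16.5, 79.5 and 240.5 CPM in old vehicle libraries. In the age table it was at 16.2, 78.1 and 111 CPM in old and 179, 40.3 and 36.8 CPM in young libraries, the same order as for Ifit3 at the top and bottom. Its changes were -0.64 ± 1.06 and -0.31 ± 0.89 (adjusted p = 0.794 and 0.898). Ifit2 (15958) spread least in this family, at 69.0, 50.8 and 51.7 CPM in old melatonin and 26.3, 78.1 and 63.4 CPM in old vehicle libraries. In old and young vehicle libraries of the age table it was at 28.0, 65.0 and 36.4 CPM and at 63.5, 50.8 and 47.9 CPM, with log2 changes of 0.00 ± 0.41 for melatonin and -0.31 ± 0.34 for age (adjusted p = 1.000 and 0.709). Levels of Ifit3b (667370) and of its near copy Ifit3 were not fully separable, since the genes share sequence. Ifit3b followed Ifit3. It was at 41.1, 6.3 and 10.5 CPM in old melatonin libraries, against 5.84, 17.6 and 70.5 CPM in old vehicle libraries of the same table, and at 4.55, 16.2 and 31.9 CPM in old against 49.6, 8.48 and 14.3 CPM in young vehicle libraries. The groups overlapped in both tables, and its changes were -0.72 ± 1.08 and -0.45 ± 0.90 (adjusted p = 0.771 and 0.841). Without the Lyz2-rich libraries Ifit1 and Ifit3 were both at 2.14 for melatonin, and at -2.41 and -2.87 for age.

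The ratio of OAS to IFIT transcripts within a library set the 2 families apart without reference to scaling between libraries. Summed TPM of the 6 OAS genes over that of the 4 IFIT genes was 0.162, 0.321 and 0.295 in old melatonin replicates 1, 3 and 5, and 0.387, 2.06 and 1.04 in old vehicle replicates 1, 3 and 5. It was 0.493, 2.25 and 1.13 in old vehicle replicates 2, 8 and 9 and 0.177, 0.341 and 0.341 in young vehicle replicates 2, 4 and 5. All 4 Lyz2-rich libraries were above 1 and all other libraries below 0.5. No test was made of this ratio, because the split by Lyz2 is not one of the study's groups.

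**Figure D3:**
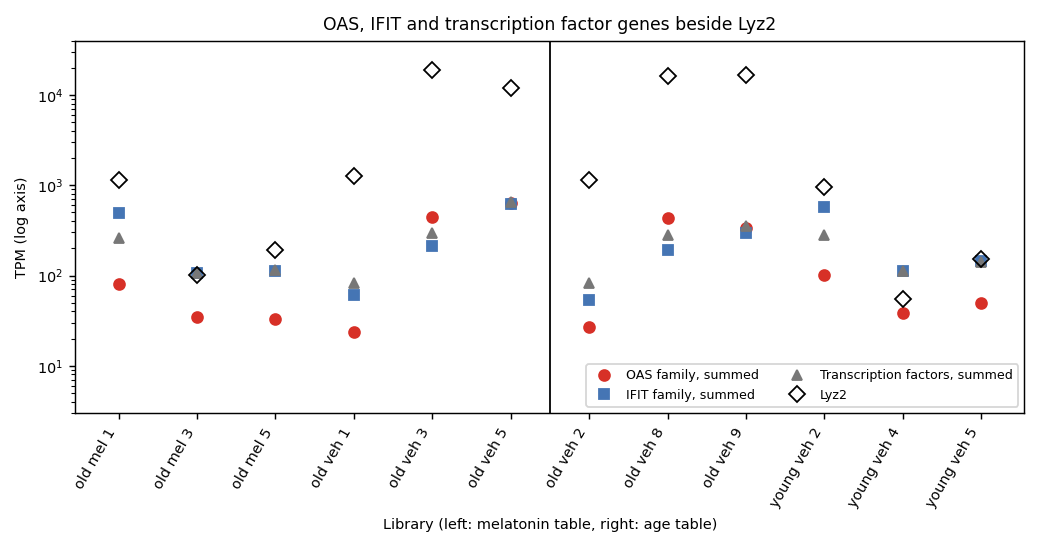
Summed TPM of the OAS genes (red circles), the IFIT genes (blue squares) and the 4 transcription factor genes (grey triangles) and TPM of Lyz2 (open diamonds) in each library, on a log axis. OAS transcripts exceed IFIT transcripts in the 4 libraries with Lyz2 at 11823 TPM or more, and the IFIT sum in young vehicle replicate 2 (579 TPM) is close to that of old vehicle replicate 5 (614 TPM).

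Other effectors ranged from genes that were high with Lyz2 to one that hardly varied. Bst2 (69550), the gene of tetherin, which holds budding viruses at the cell surface, was at 151, 47.4 and 53.2 CPM in old melatonin libraries, against 25.4, 288 and 369 CPM in old vehicle libraries. The age table had it at 36.5, 290.4 and 214 CPM in old and 182, 49.9 and 70.8 CPM in young libraries. Both sets overlapped, with log2 changes of -1.46 ± 0.97 and 0.85 ± 0.83 (adjusted p = 0.514 and 0.669). Rsad2 (58185), which encodes viperin, an enzyme that makes an antiviral nucleotide, was at 6.10, 2.67 and 2.01 CPM in old melatonin libraries, against 1.47, 28.9 and 47.2 CPM in old vehicle libraries. Its age table levels were 0.379, 23.1 and 22.3 CPM in old and 8.49, 2.89 and 3.13 CPM in young libraries, with old vehicle replicate 2 the lowest of all. The log2 changes were -2.87 ± 1.16 and 1.67 ± 1.25 (adjusted p = 0.347 and 0.572), or 1.28 and -3.66 without the Lyz2-rich libraries. Ifi35 (70110), an interferon-induced leucine zipper gene, had a smaller range. It was at 31.5, 22.4 and 23.2 CPM in old melatonin libraries, against 22.4, 44.5 and 81.3 CPM in old vehicle libraries of the same table, and at 23, 45.1 and 52.4 CPM in old against 39.3, 19.5 and 28.4 CPM in young vehicle libraries. Its highest levels were again in Lyz2-rich libraries, and its changes were -0.98 ± 0.48 and 0.48 ± 0.41 (adjusted p = 0.410 and 0.617). Ifi27 (52668), a small interferon-induced membrane protein gene, lay between 76.7 and 120.2 CPM in all 12 libraries. It was at 83.3, 89 and 94.1 CPM in old melatonin libraries, against 93.1, 76.7 and 82.2 CPM in old vehicle libraries of the same table, and at 108, 81.8 and 93 CPM in old against 81, 87.7 and 120.2 CPM in young vehicle libraries. Its log2 changes were 0.05 ± 0.15 for melatonin and -0.01 ± 0.21 for age (adjusted p = 0.895 and 0.985), the smallest standard errors of the 51 tested members in each comparison. The lowest Ifi27 level was in old vehicle replicate 3, the library with the most Lyz2. The remaining effectors, Cmpk2, Isg20, Samd9l, Ifi44 and Xaf1, had log2 changes from -1.82 for Cmpk2 to -0.46 for Isg20 in the melatonin table and from 0.13 for Xaf1 to 0.94 for Cmpk2 in the age table.

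The group named for ISG15, a ubiquitin-like protein, was next in size, with medians of -1.64 for melatonin and 1.21 for age over 8 genes. Beside enzymes that attach or remove ISG15, it holds ubiquitin ligase and ADP-ribosyltransferase (PARP) genes. Isg15 (100038882) was at 18.6, 3.45 and 8.51 CPM in old melatonin libraries, against 7.22, 43.3 and 119 CPM in old vehicle libraries. Its levels in the age table were 7.02, 46.9 and 53.9 CPM in old and 21.3, 3.49 and 15.3 CPM in young libraries. All 4 Lyz2-rich libraries exceeded the rest, but the labelled groups overlapped, with log2 changes of -2.50 ± 1.09 and 1.44 ± 0.92 (adjusted p = 0.373 and 0.507). Usp18 (24110) encodes the protease that removes ISG15 and restrains the type I receptor. It was at 27, 11.8 and 8.51 CPM in old melatonin libraries, against 4.61, 38.7 and 95.8 CPM in old vehicle libraries of the same table, and at 3.75, 47 and 43.3 CPM in old against 37.4, 9.58 and 12.8 CPM in young vehicle libraries. Old vehicle replicates 1 and 2 were its lowest libraries, and it had log2 changes of -1.59 ± 1.03 and 0.66 ± 0.96 (adjusted p = 0.501 and 0.773). Herc6 (67138) encodes the mouse ISG15 ligase. It was at 13.8, 11.1 and 7.45 CPM in old melatonin libraries, against 6.17, 36.2 and 59.8 CPM in old vehicle libraries of the same table, and at 7.02, 35.7 and 31.4 CPM in old against 14.4, 11.3 and 6.92 CPM in young vehicle libraries. It overlapped in both tables, with log2 changes of -1.70 ± 0.78 and 1.21 ± 0.63 (adjusted p = 0.387 and 0.443). Parp14 (547253), an ADP-ribosyltransferase, was at 33.3, 21.2 and 24.0 CPM in old melatonin libraries, against 22.3, 137 and 189.8 CPM in old vehicle libraries. It was at 20.8, 113 and 109 CPM in old and 33.8, 21.0 and 24.0 CPM in young libraries, so that old vehicle replicates 1 and 2 lay near the lower end of the melatonin and young libraries. Its log2 changes were -2.19 ± 0.75 and 1.64 ± 0.64 (adjusted p = 0.305 and 0.345), or 0.22 and -0.34 without the Lyz2-rich libraries. Trim30a (20128) is a mouse ubiquitin ligase gene. It was at 32.5, 16.2 and 25.7 CPM in old melatonin libraries, against 16.3, 118 and 187 CPM in old vehicle libraries of the same table, and at 16, 106 and 97.4 CPM in old against 40.1, 17.9 and 33.3 CPM in young vehicle libraries. All 4 Lyz2-rich libraries exceeded the other 8, and the changes were -2.14 ± 0.84 and 1.28 ± 0.71 (adjusted p = 0.340 and 0.458). The remaining members of this group, Trim25, Parp9 and Dtx3l, had log2 changes between -1.49 and -0.79 for melatonin and between 0.20 and 1.20 for age.

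Of the IFITM genes, Ifitm3 and Ifitm2 were the most abundant members, whereas Ifitm1 had the lowest mean TPM of the 51 tested members (2.3). Ifitm3 (66141) was at 528, 341 and 351 CPM in old melatonin libraries, against 383, 562 and 928 CPM in old vehicle libraries. For age, the levels were 422, 637 and 631 CPM in old and 576, 304 and 432 CPM in young libraries. The groups overlapped, and the log2 changes were -0.65 ± 0.40 and 0.38 ± 0.32 (adjusted p = 0.484 and 0.619). Ifitm2 (80876) had its highest levels in old melatonin replicate 5 and young vehicle replicate 5, the libraries with the most of the collagen gene Col1a1 (21439 and 23314 CPM). It was at 263, 146 and 353 CPM in old melatonin libraries, against 222, 182 and 274 CPM in old vehicle libraries of the same table, and at 222, 198 and 261 CPM in old against 278, 137 and 380.0 CPM in young vehicle libraries. It had changes of 0.14 ± 0.37 and -0.21 ± 0.39 (adjusted p = 0.876 and 0.823). Ifitm1 (68713) was at 1.38 CPM or less in every library. It was at 1.38, 0.092 and 0.957 CPM in old melatonin libraries, against 0.285, 0.354 and 0.86 CPM in old vehicle libraries of the same table, and at 0.427, 0.402 and 0.764 CPM in old against 1.09, 0.0459 and 0.859 CPM in young vehicle libraries. Its changes were 0.67 ± 0.97 and -0.32 ± 0.96 (adjusted p = 0.763 and 0.904).

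Among the interferon-inducible GTPases, Gbp5 followed the labelled groups in both tables. These proteins attack the vacuoles of intracellular pathogens. Gbp5 (229898), a guanylate-binding protein that promotes inflammasome assembly, was at 1.10, 0.598 and 0.201 CPM in old melatonin libraries, against 5.65, 16 and 21.9 CPM in old vehicle libraries. In the age table it was at 6.02, 16.1 and 11.1 CPM in old and 1.27, 1.01 and 0.0505 CPM in young libraries. All 6 old vehicle libraries thus lay above all melatonin and young libraries, including old vehicle replicates 1 and 2. The share of all genes with this split was not computed. Lyz2 itself had it, with 505 CPM in old vehicle replicate 2 against 458 CPM in old melatonin replicate 1. The macrophage markers Csf1r, C1qa, C1qb, C1qc, Fcer1g and Msr1 had it too, whereas others, such as Cd68, did not. So did the member Ifngr2 and the pathway genes Jak1, Ikbke, Irf5, Mavs, Lgals9 and Ifi204. Because libraries of the tables match in pairs, the tables are not independent here. Gbp5 had only 4 counts in old melatonin replicate 5 and 1 count in young vehicle replicate 5. The log2 changes were -4.53 ± 0.82 and 3.84 ± 0.99 (adjusted p = 0.286 and 0.315), or -3.15 and 2.94 without the Lyz2-rich libraries. Gbp2 (14469) was at 25.3, 13.3 and 16.6 CPM in old melatonin libraries, against 16.4, 66.0 and 115 CPM in old vehicle libraries. The age table had it at 16.1, 62.9 and 59.7 CPM in old and 34.3, 15.7 and 19.1 CPM in young libraries. Unlike Gbp5 it overlapped in both, with log2 changes of -1.87 ± 0.70 and 1.02 ± 0.58 (adjusted p = 0.327 and 0.467). Irgm1 (15944), a GTPase that regulates autophagy and protects against its effector relatives, was at 124, 98.5 and 52.9 CPM in old melatonin libraries, against 121, 236 and 312 CPM in old vehicle libraries. It was at 141, 246 and 195 CPM in old and 166, 95.2 and 65.8 CPM in young libraries, with changes of -1.31 ± 0.46 and 0.85 ± 0.40 (adjusted p = 0.315 and 0.409). The other GTPase genes had log2 changes from -2.33 for Iigp1 to -0.80 for Gbp3 in the melatonin table, and from -0.14 for Gbp3 to 1.04 for Iigp1 in the age table.

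In all, the groups did not overlap for 3 members in each comparison. These were Ifngr2, Oas3 and Gbp5, higher in old than in young libraries, and Ifnar2, Ifngr2 and Gbp5, lower in old melatonin than in old vehicle libraries. With shares of 8.89% and 8.99% of all genes in those directions, these counts are near the background. In the opposite directions 0 members did so, against 9.46% of all genes for age and 10% for melatonin. The motif described above did not separate members sharply. Members with ISRE letters had a median log2 change of -1.39 (22 tested) for melatonin and 0.79 for age, and those without had -1.08 (21 tested) and 0.58.

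Libraries with like amounts of Lyz2 still differed widely in these genes. Old melatonin replicate 1 and old vehicle replicate 1 held 458 and 556 CPM of Lyz2. Of the 51 members, 34 were more than 1.5-fold higher in the melatonin library, against 13.9% of 13551 genes, and Gbp5 alone was more than 1.5-fold lower, against 10.8%. The median member was 2.38-fold higher. Old vehicle replicate 2 and young vehicle replicate 2, at 505 and 396 CPM of Lyz2, differed likewise. There 38 members were more than 1.5-fold lower in the old library, against 13.2% of 13583 genes, and Gbp5 alone was more than 1.5-fold higher, against 9.38%. The median member was at 0.4 of the young level. Each of these is a difference between single libraries and has no replicate check. The melatonin and young libraries in them are a matched pair, and so are old vehicle replicates 1 and 2. The second difference is therefore not independent of the first. In the other direction, old vehicle replicate 8 held 21.2 times the Lyz2 of young vehicle replicate 2, yet Irf9, Ifit1, Ifit3, Ifit3b, Ifitm1 and Gbp3 were more than 1.5-fold lower in it, against 21.4% of 13679 genes. Another 26 members were more than 1.5-fold higher in it, against 20.9%.

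**Figure D4:**
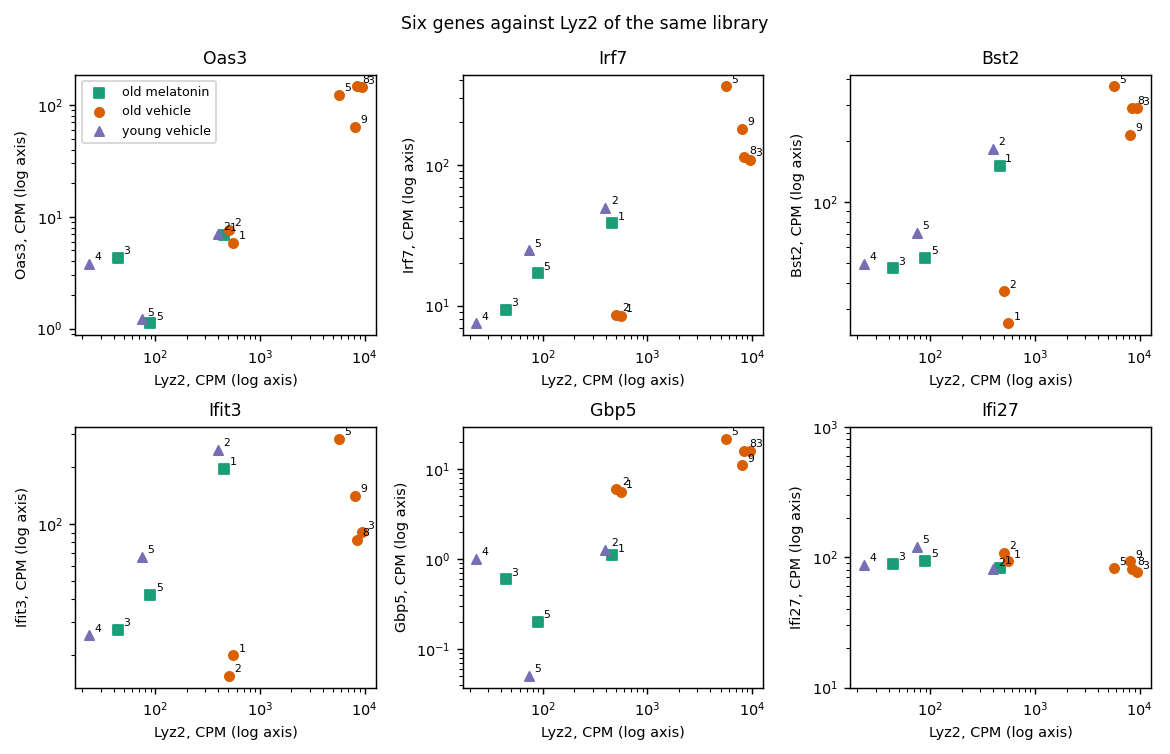
Level of Oas3, Irf7, Bst2, Ifit3, Gbp5 and Ifi27 in CPM (vertical, log axes) against Lyz2 of the same library in CPM (horizontal, log axis), with replicate numbers beside the points. Oas3 is above 60 CPM only in the 4 libraries with Lyz2 at 5664 CPM or more, Ifit3 is as high in young vehicle replicate 2 and old melatonin replicate 1 as in several of those, and old vehicle replicates 1 and 2 are lowest for Ifit3 and Bst2.

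Old vehicle replicate 5 stood out within its matched pair. Compared with replicate 9, the library of the age table it matched best (r = 0.984), 49 of 51 members were higher in it and 37 were more than 1.5-fold higher, against 6.46% of 13589 genes. None of the 51 was more than 1.5-fold lower, against 6.79%. The median member was 1.84-fold higher, while Lyz2 was at 0.702 of the level in replicate 9. Other macrophage markers went both ways between replicates 5 and 9. Adgre1 was at 1349.7 against 834 CPM and Itgam at 681 against 434 CPM, whereas Mrc1 was at 204 against 452 CPM and Cd68 at 496 against 633 CPM. Members differed in size here. Ifi44, Iigp1, Isg15, Ifit3b and Usp18 were 2.43, 2.37, 2.22, 2.21 and 2.21 times higher, Oas1a and Bst2 1.69 and 1.73 times, the receptors Ifngr1, Ifngr2 and Ifnar2 1.17, 1.17 and 1.29 times, and Ifi27 and Ifnar1 were at 0.884 and 0.933 of the level in replicate 9. The 22 members with ISRE letters had a median of 1.90-fold, and the 21 with an entry but no such letters 1.55-fold. In each of the other 5 matched pairs 0 to 3 members were over 1.5-fold higher, and the medians lay between 0.796 and 1.04. For old melatonin replicate 1 over young vehicle replicate 2 the counts were 0 higher and 1 lower (Oas1a), against 2.88% and 2.87% of all genes. For old melatonin replicate 3 over young vehicle replicate 4 they were 2 higher (Oas1g and Oasl1) and 1 lower (Gbp5), against 1.84% and 1.71%. These 2 pairs were thus near their backgrounds. Old vehicle replicate 1 over replicate 2 had 3 higher (Zbp1, Rsad2 and Cmpk2) and 1 lower (Oas1a), against 1.79% and 1.64%. Old vehicle replicate 3 over replicate 8 had 0 in either direction, against 2.14% and 2.23%. The lowest median was that of old melatonin replicate 5 over young vehicle replicate 5, where 8 members, among them Isg15, Ifit3 and Usp18, were over 1.5-fold lower in the melatonin library, against 1.89% of 12780 genes, and 0 were higher, against 1.87%. The pair of replicates 5 and 9 was also the least alike overall. The stromal surface gene Thy1 was at 15.5 CPM in replicate 5 and 335 CPM in replicate 9. The part of such differences in the interferon-stimulated genes was not tested.

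**Figure D5:**
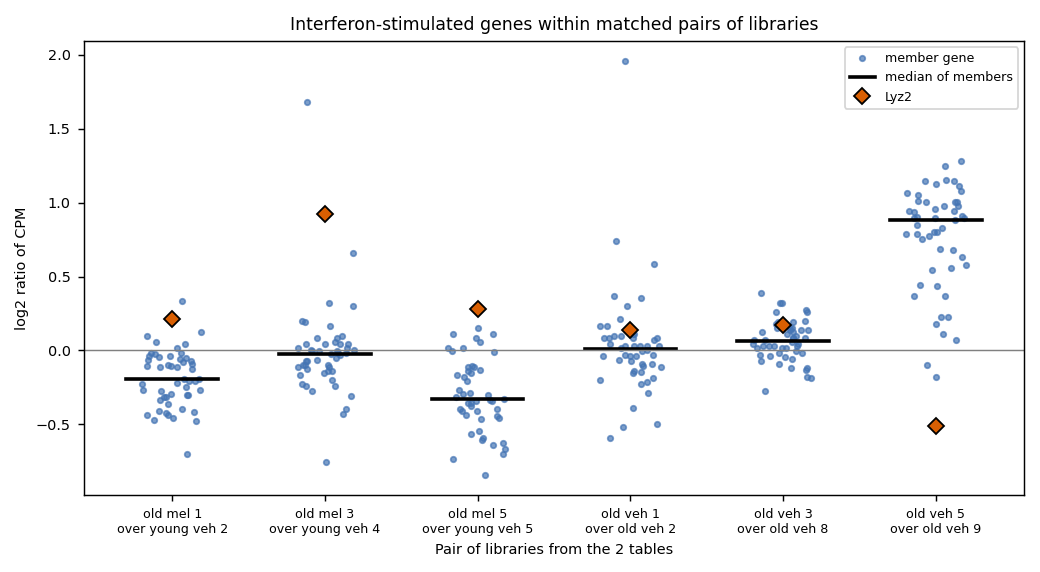
Log2 ratio of CPM between the libraries of each matched pair, with 1 point per member, a bar at their median and a diamond for Lyz2. The members of old vehicle replicate 5 over replicate 9 lie mostly between 0.5 and 1.28 with Lyz2 at -0.51, while in the other pairs the medians lie between -0.33 and 0.06.

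Other genes of the pathway gave the same picture. Of 24 listed signalling genes 22 were tested, and of 39 listed further induced genes 35 were, and 0 passed in either direction in either comparison. At an unadjusted p under 0.05, 6 signalling and 9 induced genes were lower in old melatonin than in old vehicle libraries, against 9.45% of all genes, and 0 of either were higher, against 4.76%. In the age comparison 5 signalling and 9 induced genes were higher in old libraries, against 8.81% of all genes, and 1 signalling gene was lower, against 4.95%. The median log2 changes were -0.57 and -1.40 for melatonin and 0.46 and 0.99 for age. Some genes known for high levels in macrophages had larger changes, without an adjusted p under 0.05. The RNA receptor gene Tlr7 had -4.06 ± 1.12 and 4.25 ± 1.12, and the transcription factor gene Irf8 -5.06 ± 1.33 and 4.81 ± 1.5. Slfn5, from the list of further induced genes, had -5.29 ± 1.5 and 4.59 ± 1.41, the largest of that list in both comparisons. Ifng, the interferon-gamma gene, was at 0.5 CPM or less in every library.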

How the data were processed

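Libraries were prepared by a BGISEQ-500 protocol from Trizol RNA, per the labels' protocols. Per the submitters' processing notes, the tools were RSEM, Bowtie2 and BWA and the build mm39, with no roles or versions. The annotation, like the strand setting, is not given in the sources used here. Deposited by the authors, the tables hold, per gene and library, an estimated count, an FPKM (per gene length and depth) and a TPM (scaled to 1 total per library), per the file headers. Of the estimated counts, 67.7% lay within 0.005 of a whole number. FPKM was not used beyond this description. Library totals ran from 20595378 to 21309663 estimated counts, with 15607 to 16774 genes above 0.

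Estimated counts were rounded, filtered with edgeR's filterByExpr (minimum count 10, minimum total 15), normalized by TMM within each table and tested with edgeR 4.0.16's quasi-likelihood test under R 4.3.3. Calls needed a p under 0.05 after Benjamini-Hochberg adjustment over all genes tested. The tables were tested separately, since they hold different libraries. SE is the log2 change over the square root of the F statistic. CPM used TMM over all 12 libraries, which sets levels across tables. Alternatives used DESeq2 1.42.0 and limma-voom 3.58.1. Ratios of single libraries used genes with counts in both and at least 20 in sum. The scripts were tested on simulated data with 200 changed genes. Columns whose header spells Veh as Vel were taken as vehicle. Members and lists were chosen with earlier results of these data known. Named genes are, per role group, the 2 with the highest mean TPM and the 2 with the smallest p in each comparison. Some pathway and marker genes are not reported here.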

Additional observations from a re-analysis of the deposited data

How the results depend on the processing

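No member or gene was called by edgeR in the age comparison under any library left out (0 in each), at an adjusted p under 0.1, without a filter, without the Lyz2-rich libraries, with Lyz2 as a covariate or by limma-voom. The exceptions were DESeq2 (4 members, 868 genes) and all 6 old vehicle libraries (46 genes, 0 members). For melatonin, leaving out single libraries gave 0 to 12 members and 0 to 602 genes, all of them without old vehicle replicate 1, and DESeq2 gave 7 members and 895 genes. The median log2 change of members ran from 0.39 to 1.09 for age and from -1.74 to -0.69 for melatonin as single libraries were left out. It turned to -0.79 and 0.70 without the Lyz2-rich libraries and to -1.37 and 1.22 with log2 CPM of Lyz2 as a covariate, which itself differs between the groups. TPM, or CPM without TMM, moved the ratio of group means by less than the spread between libraries.

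Titles of the melatonin libraries and the old vehicle libraries of their table share replicate numbers, but do not say what a number stands for. Deviations of libraries with the same number correlated at r = -0.223, 0.104 and -0.0265, against -0.23 to 0.303 for different numbers. With so few libraries per group, these values cannot settle if the libraries are paired. With the replicate block, edgeR called 0 members, and only Irf9 changed sign, to 0.0066. No paired analysis was possible for age because the groups share a single number.

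Without the Lyz2-rich libraries (for single genes chosen after seeing the data), age changes turned to -1.67 for Irf7, -0.55 for Irf1, -0.87 for Ddx58, -0.33 for Eif2ak2, -0.44 for Ifih1, -1.82 for Zbp1, -1.97 for Oasl2, -0.078 for Oas1a, -1.48 for Bst2, 0.16 for Ifi27, -3.66 for Rsad2, -0.34 for Ifi35, -0.93 for Isg15, -2.42 for Usp18, -0.34 for Parp14, -0.63 for Herc6, -0.93 for Trim30a, -0.055 for Ifitm3 and -0.52 for Gbp2. Melatonin changes turned to 1.35 for Irf7, 0.96 for Irf9, 0.35 for Irf1, 0.73 for Ddx58, 0.27 for Eif2ak2, 0.21 for Ifih1, 0.80 for Zbp1, 1.44 for Oasl2, 0.16 for Oas1a, 2.14 for Ifit3 and Ifit1, 1.72 for Ifit3b and Bst2, -0.079 for Ifi27, 1.28 for Rsad2, 0.19 for Ifi35, 0.50 for Isg15, 1.77 for Usp18, 0.22 for Parp14, 0.80 for Herc6, 0.60 for Trim30a, 0.078 for Ifitm3 and 0.16 for Gbp2. With all 6 old vehicle libraries Ifit1 and Ifit3b turned to 0.084 and 0.020 for age. Signs also changed as single libraries were left out. For age the ranges were -0.17 to 0.52 for Ddx58, -0.13 to 0.51 for Eif2ak2, -1.20 to 0.82 for Ifit3, -0.85 to 0.87 for Ifit1, -1.21 to 0.66 for Ifit3b, -0.12 to 0.16 for Ifi27, -0.52 to 0.12 for Ifitm2 and -0.86 to 0.26 for Ifitm1. For melatonin they were -0.43 to 0.42 for Irf9, -1.97 to 0.68 for Ifit3, -1.82 to 0.60 for Ifit1, -0.34 to 0.34 for Ifit2, -1.95 to 0.71 for Ifit3b and -0.14 to 0.43 for Ifitm2. Fits without the Lyz2-rich libraries assume that the lone old vehicle library varies like the other group.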

Other observations

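The genes highest in old vehicle replicate 5 relative to replicate 9, ranked by ratio among 9680 genes with a mean of at least 10 CPM, held other interferon-inducible genes beside members. The first 40 include 8 members and, from the other pathway genes, Gbp6 (61.5 against 27.0 CPM) and Phf11d (67.8 against 31.2 CPM). Genes of interferon-inducible families outside both lists also appear, such as Ifi206 (27.5 against 11.1 CPM), Ifi213 (29.0 against 12 CPM), Apol9b (27.3 against 12.2 CPM) and Tgtp2 (217 against 101 CPM). Others have different roles, such as the acute-phase gene Hp (1204 against 521 CPM), the complement regulator gene Cd55 (498 against 224 CPM), the tight junction gene Cldn1 (44.5 against 17.8 CPM) and the stromelysin gene Mmp3 (51.1 against 21.7 CPM). This is a ranking within 1 pair of libraries, made after its values were seen, and it has no replicate check.

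The Lyz2-rich libraries were not alike. Cd4, which some mouse macrophages express, was at 85.3 and 109 CPM in old vehicle replicates 3 and 8, and at 0.812 and 1.24 CPM in replicates 5 and 9, while Cd3e was at most 0.286 CPM in all 12 libraries. Between replicates 9 and 8, with Lyz2 in replicate 9 at 0.962 of the level in replicate 8, 6 of 51 members (Irf1, Oas1a, Oas1g, Oas3, Ifit2 and Samd9l) were over 1.5-fold lower in replicate 9, against 14.6% of all genes, and 5 (Ifngr1, Irf7, Ifit3, Ifit3b and Ifitm1) were over 1.5-fold higher, against 16.2%. Neither share was above that of all genes.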
